A study of Mus musculus with 8 samples.

Results

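The solute carriers examined here are the rows of the deposited table whose gene symbol begins with Slc and a digit and whose raw counts over the 8 libraries sum to 200 or more. They number 173 of 48709 genes. Another 8 Slc genes that meet the same count were left out by name, Slc7a2, Slc7a11, Slc2a1, Slc2a6, Slc16a3, Slc40a1, Slc11a1 and Slc39a2. Of 379 Slc rows in the table, 112 had 0 counts in every library and 86 had between 1 and 199 counts. The genes were chosen by their summed count, a level over both genotypes, and the amino acid carrier Slc43a2 was singled out because its genotype difference was already known, so its difference is a description: where it appears in a count of calls, that count reads nothing from it. Slc1a2 reached the count only through its Batf2-/- libraries, so the same holds for it, also in counts of non-overlapping genes. Just inside the limit lay Slc29a2, Slc46a1 and Slc18b1 with 200, 214 and 218 counts, and just outside it lay Slc32a1, Slc1a4 and Slc25a23 with 153, 134 and 132 counts. By symbol, 169 of the 173 encode carriers. The other 4, Slc9a3r1, Slc9a3r2, Slc4a1ap and Slc7a6os, carry an Slc name but encode scaffold or other proteins, and they are kept apart.

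The cells were primary macrophages of the lung alveoli, which live on the air side of the lung surface, from WT mice (C57BL/6J) and from Batf2-/- mice, which lack the AP-1 family transcription factor BATF2. All cells of both genotypes received interferon gamma (IFNg) at 10 ng/mL for 4 h followed over 6 h by K. pneumoniae culture supernatant at 20% (Klebsiella, a bacterium that causes pneumonia), to bring about an M1-like state. Each genotype had 4 libraries, and each library was a pool of cells from 4 mice, so 16 mice contributed to each genotype. For the Batf2-/- mice the background strain, age and sex are not given in the sources used here, and no unstimulated cells were compared.

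Solute carriers are membrane proteins that move small molecules across the plasma membrane or the membranes of lysosomes, mitochondria, the endoplasmic reticulum (ER) and the Golgi. Amino acid carriers supply protein synthesis and lysosomal nutrient sensing, mitochondrial carriers of the SLC25 family exchange nucleotides, phosphate and organic acids with the cytosol, and metal carriers set the zinc, copper and iron content of compartments. Activated macrophages are known for a heavy use of glucose, arginine and cystine and for withholding metals from microbes.

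Libraries carry the order of the table's columns as their number, WT first (1 to 4), then Batf2-/- (5 to 8). Their total counts ranged from 31730041 to 39888022, and the 173 genes took between 0.984% and 1.37% of them, with the lowest shares in libraries 4 and 8. Batf2 itself had 0 counts in all 4 Batf2-/- libraries and 138 to 189 CPM (counts scaled to a library of 1e6) in WT. Libraries 4 and 8 stood apart from the others of their genotype across the transcriptome, and values without them are given where they change a call. All 16 alveolar macrophage markers examined passed the filter on low counts, and their summed level was 6081 to 7457 CPM in WT and 8362 to 13247 CPM in Batf2-/-, with Chil3 at 3316 ± 613 and 6291 ± 2055 CPM (SD, n = 4 per group). Chil3 is the largest term of that sum, which does not speak for each marker. By edgeR's unadjusted p under 0.05, which 8.5% of all tested genes reached, 3 of the 16 were higher, Chil3, Car4 and Plet1. By the same measure 1 was lower, Pparg, at 10.1 ± 0.536 and 8.11 ± 0.925 CPM. Siglecf stood at 77.7 ± 6.04 and 64.9 ± 10.1 CPM. The 12 neutrophil markers summed to 20.4 to 33.2 CPM in WT and 32.7 to 54.1 CPM in Batf2-/-, with Ly6g, Retnlg, Mpo and Elane at 0 in every library. Most of that sum was S100a8, at 19.2 ± 6.98 and 29.2 ± 11.8 CPM, while S100a9, Camp, Ngp and Ltf were near 0. The 11 stromal and endothelial markers summed to 21.1 to 35.9 and 23.7 to 46.9 CPM, and the 14 epithelial markers to 34.5 to 39.9 and 38.1 to 47 CPM. Most of the former was Vwf, at 27.4 ± 6.09 and 32.5 ± 9.51 CPM, and most of the latter Epcam and Napsa. These sums too do not speak for each marker. The 9 dendritic cell markers summed to 5.96 to 7.79 and 4.44 to 5.95 CPM with Cd209a and Siglech at 0, the 12 lymphocyte markers to 0.495 to 1.00 and 0.442 to 3.91 CPM with Ncr1 at 0, and the 6 erythroid markers to at most 0.331 CPM in any library. Of all these markers Car4 and Pdgfrb were called higher and Clec9a lower in Batf2-/-. The part of these markers in the differences below was not tested, and in bulk RNA fewer cells of a type and less RNA per cell cannot be told apart.

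All 173 genes passed the filter and were tested with edgeR's quasi-likelihood test, with p-values adjusted by the Benjamini-Hochberg method over all 11083 tested genes. Few of them differed between the genotypes by this test. Slc33a1 fell and 171 genes did not pass an adjusted p of 0.05. Slc43a2, chosen for its difference, lay past the threshold too, upward. With it the 2 genes are 1.16% of the 173, and 1.11% of all tested genes were called (0.55% higher and 0.559% lower in Batf2-/-), so the share was near the background. All 4 libraries of one genotype lay beyond all 4 of the other for 12 of the 173 (6.94%), 6 higher and 6 lower in Batf2-/-. That too was near the background, 6.33% of all tested genes (3.03% higher and 3.29% lower). An unadjusted p under 0.05 was reached by 14 of the 173 (8.09%), 9 higher and 5 lower, and by 8.5% of all tested genes. The median log2 fold change of Batf2-/- over WT was -0.04 over the 173 and -0.01 over all tested genes, and 139 of the 173 (80.3%) differed by less than 1.2-fold, as did 80.4% of all tested genes.

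Other fits gave 2 to 32 calls among the 173, and each is set beside the share of all genes called in the same fit. RLE factors, upper quartile factors and a filter of at least 1 CPM in at least 4 libraries each called 2, against 1.14%, 1.12% and 1.01% of all genes. DESeq2 called 6 (2.68% of all genes), limma-voom with sample quality weights 5 (3.34%), no filter 4 (0.781%), a block on column position 32 (12.5%) and a fit without libraries 4 and 8 called 5 (1.85%). Without libraries 1 to 7 in turn 2 were called each time, against 0.68%, 0.563%, 0.384%, 0.919%, 0.682%, 0.689% and 0.529% of all genes, and without library 8 there were 5 calls (1.27%). The block pairs columns by their place under each genotype heading, which no label ties to a shared animal, day or batch. Library pairs at the same place had deviations from their genotype means that correlated across genes at r = 0.68, 0.61, 0.26 and 0.84. For each WT library this was its highest r with any Batf2-/- library. Some pairs at other places were also above 0, such as libraries 4 and 7 at 0.26, 2 and 5 at 0.42 and 1 and 6 at 0.27. Others were below 0, down to -0.75 for libraries 4 and 5 and -0.72 for 1 and 8. Calls of the block fit are given beside each substrate group below, to be read against the 12.5% of all genes called there. That share was not split by direction, so nothing is read from groups called on 1 side only.

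**Figure D1:**
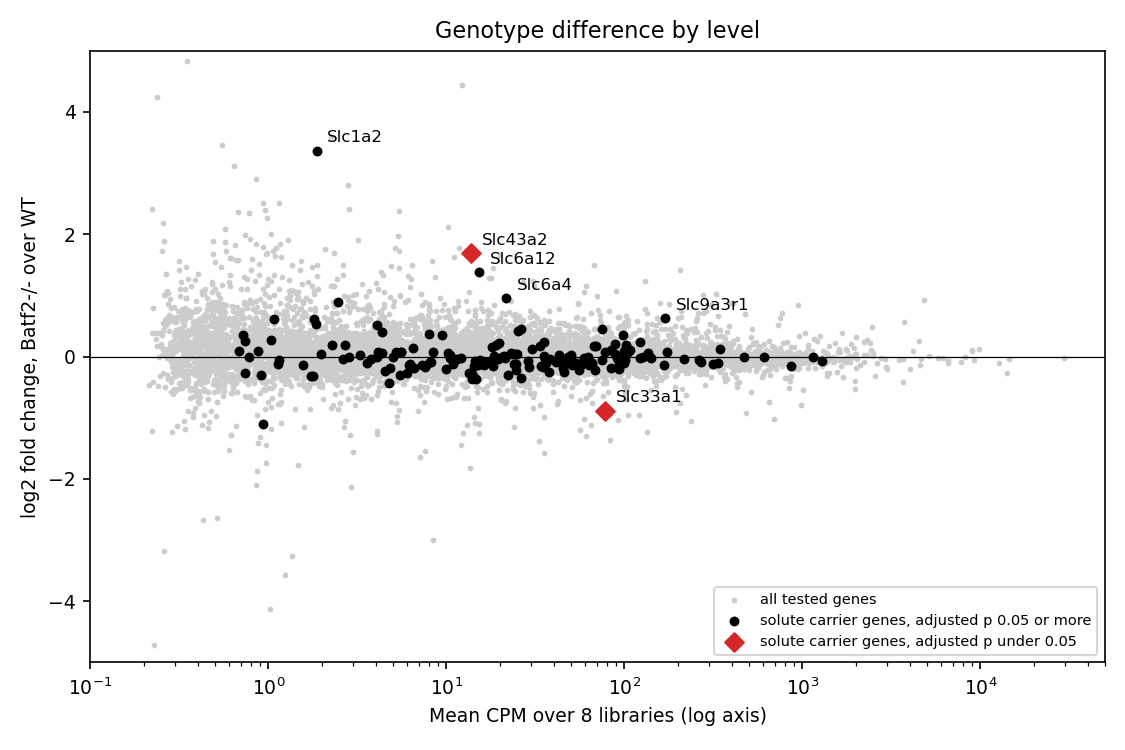
Each point is a gene, placed by its mean CPM over 8 libraries (log axis) and its log2 fold change of Batf2-/- over WT; grey points are all tested genes, black points the Slc genes that did not pass, and red diamonds the Slc genes with an adjusted p under 0.05. Slc43a2 at 1.69 and Slc33a1 at -0.89 are the diamonds, and most black points lie close to 0; 5 genes lie outside the axes.

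Slc43a2 encodes LAT4, a carrier of branched-chain amino acids, phenylalanine and methionine. In GRCm38 it lies on chromosome 11, 75531694 to 75577575, plus strand (ENSMUSG00000038178). Its level was 6.65, 8.08, 6.55 and 4.83 CPM in WT libraries 1 to 4 and 23.3, 24.4, 17.4 and 19.2 CPM in Batf2-/- libraries 5 to 8. The groups did not overlap, and the lowest Batf2-/- library stood above the highest WT library. The mean was 6.53 ± 1.33 CPM in WT libraries and 21.1 ± 3.34 CPM in Batf2-/- ones (SD, n = 4 per group), a 3.22-fold difference with a log2 fold change of 1.69 ± 0.18 (SE). It is overlapped by 2 annotated genes, the microRNA gene Mir3971 and an antisense gene, both with 0 counts. Per length it stayed a minor amino acid carrier, at 0.650 ± 0.133 reads per kilobase of merged exon in a library of 1e6 reads (RPKM) in WT and 2.10 ± 0.332 in Batf2-/-.

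Slc33a1 encodes the carrier that takes acetyl-CoA into the ER lumen, where it serves the acetylation of proteins and gangliosides. It lies on chromosome 3, 63933507 to 63964768, minus strand (ENSMUSG00000027822). Its level was 99.0, 92.0, 102 and 113 CPM in libraries 1 to 4 and 50.7, 55.4, 53.8 and 60.2 CPM in libraries 5 to 8. The groups were far apart and narrow, and library 4 was the highest of WT as library 8 was of Batf2-/-. The gene fell 1.85-fold, from 102 ± 8.94 to 55.0 ± 3.97 CPM (SD, n = 4; log2 fold change -0.89 ± 0.11, SE; edgeR adjusted p = 0.00501), lower in 4 of 4 Batf2-/- libraries. The call held without any single library, with adjusted p from 0.00724 to 0.0428, the highest without library 3. An antisense gene that overlaps it, Gm26850, had 38 counts in all, against 22700 for Slc33a1. Within 5 Mb on either side, a window chosen after the values were seen, 0 of 22 tested neighbours were called. Over all tested genes the share was 1.11%, so with 22 neighbours a count of 0 says nothing about the region.

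The windows from 250 bases before to 50 after the annotated start are shown for these changed genes, from RefSeq (GRCm38.p6), 5′ to 3′ on the strand of the gene. The Slc43a2 window is chr11:75531444-75531743 (plus strand), the nearer to the gene start of those RefSeq lists, and the Slc33a1 window is chr3:63964684-63964983 (minus strand). Slc37a2, a sugar phosphate carrier described below, is shown beside them (chr9:37255689-37255988, minus strand) because its window holds the AP-1 motif TGANTCA, which BATF family factors are known to bind with JUN partners. Capitals mark that motif.
Slc43a2: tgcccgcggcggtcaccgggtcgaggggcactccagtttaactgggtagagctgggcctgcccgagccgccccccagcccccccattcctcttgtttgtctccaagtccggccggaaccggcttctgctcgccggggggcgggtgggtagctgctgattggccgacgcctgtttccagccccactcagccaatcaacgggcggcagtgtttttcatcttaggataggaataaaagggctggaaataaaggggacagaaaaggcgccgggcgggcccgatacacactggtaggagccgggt
Slc33a1: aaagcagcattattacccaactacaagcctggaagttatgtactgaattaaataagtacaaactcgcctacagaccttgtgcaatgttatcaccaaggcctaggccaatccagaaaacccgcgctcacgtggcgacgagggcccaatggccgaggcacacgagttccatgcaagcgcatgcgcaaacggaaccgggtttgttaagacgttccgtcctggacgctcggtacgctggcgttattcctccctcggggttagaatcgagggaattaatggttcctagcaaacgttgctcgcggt
Slc37a2: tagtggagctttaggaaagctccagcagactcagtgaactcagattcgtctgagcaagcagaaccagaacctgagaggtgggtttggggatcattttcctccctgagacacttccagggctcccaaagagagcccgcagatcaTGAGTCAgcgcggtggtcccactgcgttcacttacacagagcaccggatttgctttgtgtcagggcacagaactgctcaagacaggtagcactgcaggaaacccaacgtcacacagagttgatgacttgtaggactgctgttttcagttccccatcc
Exact matches were sought on both strands for TGANTCA, for the cAMP response element TGACGTCA, for the IRF element of paired GAAA repeats with any 2 bases between, and for TGATGNAA, an element of ATF4 with C/EBP factors. The Slc43a2 and Slc33a1 windows held none of these, which says only that these letters are not in these 300 bases. A window was listed for 133 of the 173 genes. TGANTCA was in 7 of them (5.26%) and in 7.81% of all 32851 listed windows of that length. The 7 genes were Slc25a11, Slc25a13, Slc2a9, Slc37a2, Slc38a10, Slc38a7 and Slc7a1, none of which passed the test, with log2 fold changes from -0.32 (Slc2a9) to 0.17 (Slc37a2). The other motifs were each in 2 member windows (1.5%), and in 1.79%, 3.44% and 3.97% of all windows in the order given.

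A further 4 genes had an unadjusted p under 0.01 by edgeR without passing the adjusted threshold, all higher in Batf2-/-. The share of all tested genes at that p is not given here, so nothing is read from their number or direction. Slc6a12, the carrier of betaine and GABA known as BGT1, stood at 11.6, 6.38, 9.38 and 6.44 CPM in libraries 1 to 4 and 26.4, 22.7, 27.4 and 11.8 CPM in libraries 5 to 8. The groups did not overlap, but library 8 stood only just above the highest WT library. The log2 fold change was 1.38 ± 0.29 (SE, n = 4 per group; edgeR adjusted p = 0.0665), and without library 8 the gene passed at 1.59 (adjusted p = 0.0115). It also passed at 1.49 without libraries 4 and 8 together (adjusted p = 0.00602) and at 1.37 with the block on column position (0.00154).

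Slc1a2, the glutamate carrier GLT-1 best known from astrocytes, was nearly silent in WT at 0.282, 0.399, 0.388 and 0.248 CPM. In Batf2-/- it reached 8.0, 1.21, 3.70 and 0.717 CPM in libraries 5 to 8. Every Batf2-/- library lay above every WT library, and the Batf2-/- libraries themselves were scattered. With 583 counts in all, Slc1a2 reached the limit of 200 only through the Batf2-/- libraries, so its difference is a description. The log2 fold change was 3.36 ± 0.74 (SE, n = 4; edgeR adjusted p = 0.0798), it passed without library 8 (adjusted p = 0.0210) and without libraries 4 and 8 (0.0253), and it was not called without any other single library. Without library 5, the highest, the log2 fold change was 2.51 (adjusted p = 0.115).

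Slc6a4, the serotonin carrier, had WT levels of 18.1, 16.4, 11.9 and 12.3 CPM, and its Batf2-/- levels were 40.2, 24.6, 19 and 30.3 CPM. The groups did not overlap, with library 7 just above library 1 (log2 fold change 0.96 ± 0.24, SE, n = 4; edgeR adjusted p = 0.127; 0.00387 with the block). Slc9a3r1 is not a carrier but encodes NHERF1, a scaffold that tethers membrane proteins to the actin cortex. Its WT libraries held 151, 139, 126 and 116 CPM and its Batf2-/- libraries 243, 217, 208 and 158 CPM, groups that did not overlap (log2 fold change 0.63 ± 0.15, SE, n = 4; edgeR adjusted p = 0.108). Without library 8 it passed (adjusted p = 0.0285), as it did without libraries 4 and 8 (0.0115) and with the block (6.14e-05). Its relative Slc9a3r2, the NHERF2 gene, stood at 1.73 ± 0.709 and 3.19 ± 1.19 CPM with overlapping groups, and was called only in the block fit (adjusted p = 0.00264). The remaining non-carriers, Slc4a1ap and Slc7a6os, had log2 fold changes of -0.04 ± 0.11 and -0.15 ± 0.19.

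**Figure D2:**
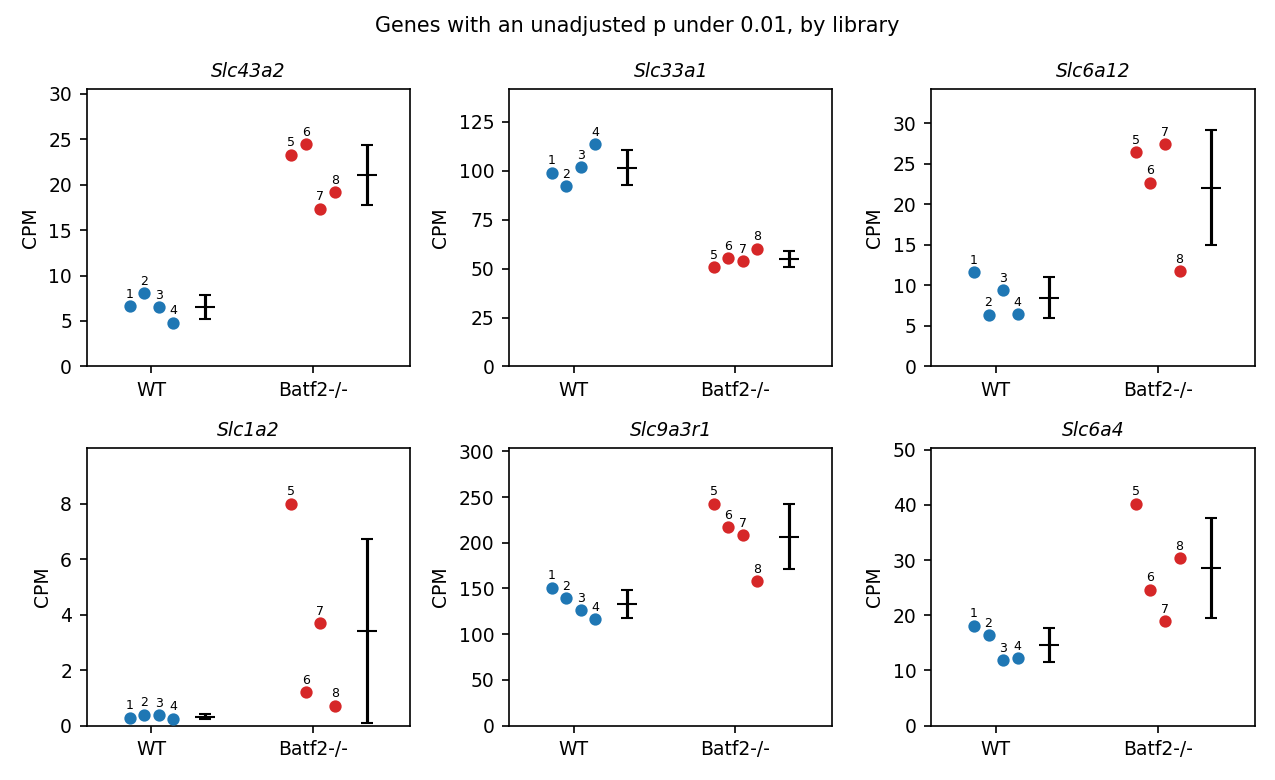
Each dot is the CPM of 1 library, labelled with its number, for WT (blue, 1 to 4) and Batf2-/- (red, 5 to 8); the black mark and bar are the mean and SD over 4 libraries, and each axis starts at 0. In all 6 panels the genotypes do not overlap, by a wide margin for Slc43a2 and Slc33a1 and narrowly for Slc6a12 in library 8.

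Slc43a2 and Slc6a4 lie 1.47 Mb apart on chromosome 11, and Slc9a3r1 lies further along it at 115163341 to 115181181. Of the 17 members on chromosome 11, 5 had non-overlapping groups (29.4%), Slc43a2, Slc9a3r1, Slc6a4, Slc22a4 and Slc16a13, against 8.36% of the 933 tested genes of that chromosome. The chromosome was picked after its values were seen; chromosome 18 had 2 of 5 members (40%, against 7.98% of its genes) and chromosome 6 had 2 of 7 (28.6%, against 7.52%). Within 5 Mb of Slc43a2, 4 of 129 tested neighbours were called (3.10%, against 1.11% of all tested genes), Adap2, Nlrp1b, P2rx5 and Sgsm2, 2 higher and 2 lower. Among the 6 members on chromosome 19, which carries Batf2, none had non-overlapping groups, against 7.56% of its 410 tested genes. With 6 members, none is near that share. The member nearest to Batf2, Slc25a45, starts 0.263 Mb from it and measured 14.9 ± 2.14 in WT against 14.2 ± 0.589 CPM in Batf2-/- (SD, n = 4). Slc29a2, a nucleoside carrier, followed at 0.656 ± 0.134 and 0.703 ± 0.257 CPM.

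Levels between genes are compared per length, in RPKM averaged over 8 libraries. The 173 genes spanned 0.0652 (Slc22a15) to 523 (Slc25a5) on this scale, with a median of 4.80 against 3.98 for all tested genes, 50 genes above 10 and 39 below 1. The 10 genes with the most reads held 49.8% of all reads assigned to the 173.

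**Figure D3:**
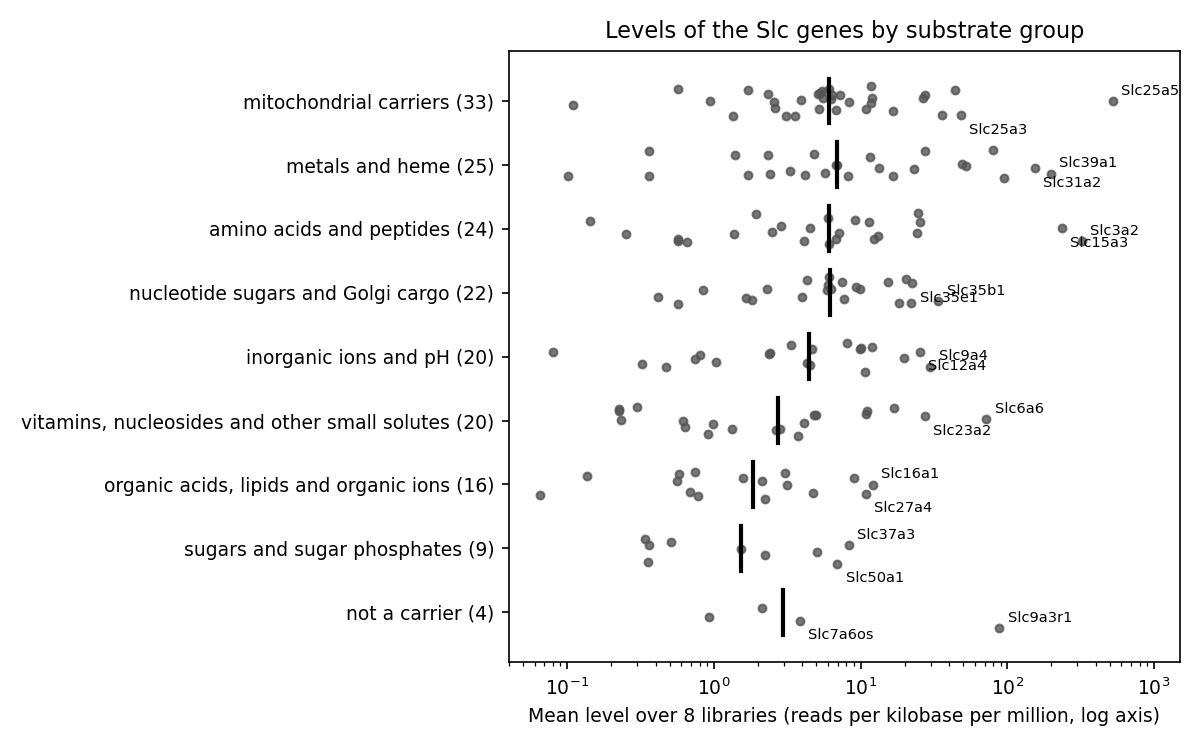
Each dot is a gene, placed by its mean level per length over 8 libraries (log axis) within its substrate group, with the number of genes in parentheses and the group median as a bar. The 2 highest genes of each group are named; Slc25a5, Slc3a2, Slc15a3, Slc39a1 and Slc31a2 all lie above 100.

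Amino acid and peptide carriers numbered 24, of which Slc43a2 alone lay past the threshold and 23 did not pass; 9 had a log2 fold change above 0 and 15 below, with a median of -0.04. With the block 4 were called, Slc43a2, Slc1a2 and Slc7a7 higher and Slc7a5 lower. The most abundant per length was Slc3a2, which encodes the CD98 heavy chain that carries several SLC7 light chains to the cell surface, at 323 ± 36.6 in WT and 324 ± 54.9 in Batf2-/- (RPKM, SD, n = 4). Slc15a3, a lysosomal carrier of histidine and peptides such as the bacterial muramyl dipeptide, followed at 242 ± 43.7 and 229 ± 45. In CPM it ran 1662, 1297, 1260 and 1093 in WT and 1342, 1449, 1354 and 896 in Batf2-/-, so the genotypes overlapped and libraries 4 and 8 were the lowest of each. Slc36a4, a carrier of proline and tryptophan, was next at 26.8 ± 3.65 and 24.3 ± 2.97 per length. Slc3a2 and Slc15a3 lie on chromosome 19, 2.57 and 4.70 Mb from Batf2.

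Other amino acid carriers, some of them with substrates of Slc43a2, and an Slc43 paralogue were also measured. Slc7a5, the large neutral amino acid carrier LAT1 that pairs with CD98, measured 29.6 ± 9.17 in WT against 23.3 ± 7.01 CPM in Batf2-/- (SD, n = 4; log2 fold change -0.34 ± 0.26, SE). Slc7a8, its relative LAT2, stood at 113 ± 27.3 and 132 ± 41.5 CPM (0.23 ± 0.24). Slc7a7, a cationic and neutral amino acid exchanger whose loss in humans causes lysinuric protein intolerance, stood at 8.31 ± 1.38 and 10.6 ± 2.02 CPM (0.35 ± 0.17). The glutamine carriers Slc1a5, Slc38a1 and Slc38a2 had log2 fold changes of -0.07 ± 0.20, 0.07 ± 0.23 and -0.06 ± 0.16, and the arginine carrier Slc7a1 one of -0.07 ± 0.23. None of these passed without the block, and each genotype pair overlapped. The paralogue Slc43a3, a carrier of purine nucleobases, had 3.29, 4.52, 3.27 and 2.38 CPM in its WT libraries against 5.95, 5.19, 5.30 and 2.77 CPM in Batf2-/-, overlapping through library 8 (log2 fold change 0.51 ± 0.26, SE; edgeR adjusted p = 0.701; 0.0363 with the block). Slc43a1 did not reach the count limit.

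Mitochondrial carriers were the largest group with 33 genes, none of which passed. Their log2 fold changes were below 0 in 25 and above 0 in 8, with a median of -0.11 against -0.01 over all tested genes, and the range ran from -0.43 (Slc25a40) to 0.16 (Slc25a30). With upper quartile scaling the split was 23 below and 10 above. With the block, which called 12.5% of all tested genes, 3 were called, Slc25a24, Slc25a33 and Slc25a40, all lower in Batf2-/-. Slc25a5, the ADP/ATP translocase ANT2, was the most abundant gene of all 173 per length, at 551 ± 50.9 in WT and 495 ± 17.4 in Batf2-/- (RPKM, SD, n = 4). In CPM it was 902, 823, 883 and 1023 in WT and 808, 776, 838 and 834 in Batf2-/-, overlapping groups with a log2 fold change of -0.16 ± 0.11. ANT genes have near-identical paralogues and processed copies, so the share of reads assigned to Slc25a5 is uncertain. Slc25a3, the phosphate carrier, stood at 49.8 ± 3.24 and 46.7 ± 1.58 per length, and Slc25a11, the oxoglutarate and malate carrier, at 45.6 ± 2.20 and 42.6 ± 1.91. Slc25a46, an outer membrane protein that acts in mitochondrial fusion and fission, was the 1 gene of the group with non-overlapping groups, at 62.3 to 69.6 CPM in WT and 58.8 to 61.5 CPM in Batf2-/- (log2 fold change -0.14 ± 0.09, SE, n = 4; edgeR adjusted p = 0.906).

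Metal and heme carriers numbered 25, and none passed; 18 had a log2 fold change below 0 and 7 above. With the block Slc30a4 and Slc41a2 were called higher and Slc39a10 lower. Slc39a1, the zinc importer ZIP1, was the most abundant per length at 198 ± 16.6 in WT and 198 ± 8.49 in Batf2-/-, followed by the copper carrier Slc31a2 at 161 ± 36.4 and 148 ± 34.2 and the heme exporter of lysosomes Slc48a1 at 97.9 ± 13 and 93.7 ± 13 (RPKM, SD, n = 4). Slc31a2 differed more among libraries than between genotypes, at 273, 274, 329 and 431 CPM in WT and 228, 266, 325 and 387 CPM in Batf2-/-, highest in libraries 4 and 8. The zinc importer Slc39a6 ran from 96.2 to 111 CPM in WT and from 78.0 to 94.6 CPM in Batf2-/-, without overlap (log2 fold change -0.20 ± 0.11, SE, n = 4; edgeR adjusted p = 0.746). It overlaps Elp2 on the opposite strand, which had 8029 counts against 27411, and the strand setting of the count is not given. Slc30a9, of the zinc efflux family, ran from 29.9 to 33.2 and from 26.4 to 28.3 CPM, also without overlap (-0.17 ± 0.09; adjusted p = 0.750).

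The 22 carriers of nucleotide sugars and other ER and Golgi cargo held Slc33a1 as the only gene that passed, downward; 15 log2 fold changes lay below 0 and 7 above. With the block, which called 12.5% of all tested genes, 5 were called, all lower, Slc33a1, Slc35a1, Slc35a3, Slc35e3 and Slc35f5. Slc35b1, which exchanges ATP for ADP at the ER membrane, was the most abundant per length at 34.6 ± 2.76 in WT and 33.2 ± 3.94 in Batf2-/-, followed by Slc35e1, whose substrate is not established, at 21.6 ± 3.18 and 23 ± 3.89, and Slc33a1 at 28.6 ± 2.52 and 15.5 ± 1.12 (RPKM, SD, n = 4). In WT alone Slc33a1 thus stood above Slc35e1, and in Batf2-/- below it.

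Among the 20 carriers of inorganic ions and protons none passed, with 10 log2 fold changes on each side of 0 and no gene with non-overlapping groups. With the block 4 were called, Slc12a7 higher and Slc20a1, Slc8a1 and Slc8b1 lower. Slc9a4, a sodium-proton exchanger, was the most abundant per length at 29.3 ± 3.13 in WT and 30.5 ± 3.97 in Batf2-/-. Slc12a4, the potassium-chloride cotransporter KCC1, stood at 24.3 ± 6.05 and 26.2 ± 7.23, and Slc8b1, the mitochondrial sodium-calcium exchanger, at 21.3 ± 4.66 and 18.3 ± 3.61 (RPKM, SD, n = 4). The largest difference of the group was that of Slc8a1, the plasma membrane sodium-calcium exchanger, at 15.6 ± 1.76 and 12.1 ± 2.07 CPM with overlapping groups (log2 fold change -0.36 ± 0.15, SE; edgeR adjusted p = 0.499).

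Of 16 carriers of organic acids, lipids and organic ions none passed. With the block 4 were called, Slc6a4, Slc22a4 and Slc27a1 higher and Slc22a15 lower. Slc16a1, the lactate and pyruvate carrier MCT1, was the most abundant per length at 12.5 ± 0.755 in WT and 11.6 ± 0.544 in Batf2-/-, then Slc27a4, a fatty acid transport protein, at 10.9 ± 1.38 and 10.9 ± 1.66, and Slc10a3 at 9.51 ± 1.57 and 8.58 ± 1.42 (RPKM, SD, n = 4). Slc22a4, the ergothioneine carrier OCTN1, ran from 5.45 to 7.88 CPM in WT and from 8.07 to 10.9 CPM in Batf2-/-, without overlap (log2 fold change 0.36 ± 0.15, SE, n = 4; edgeR adjusted p = 0.528).

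The 9 sugar and sugar phosphate carriers were low per length, with a median of 1.53 and a maximum of 8.34, and none passed; the glucose carriers named as left out above are not among them. Slc37a3, which with its partner ATRAID releases bisphosphonates from lysosomes, ran from 46.2 to 51.7 CPM in WT and from 39.6 to 46.1 CPM in Batf2-/-, just without overlap (log2 fold change -0.19 ± 0.10, SE, n = 4; edgeR adjusted p = 0.735), and was the 1 sugar carrier called with the block (0.0442). Slc50a1, a sugar carrier of the SWEET family, stood at 9.97 ± 0.522 and 10.4 ± 0.414 CPM, and Slc37a2, a glucose 6-phosphate carrier of the ER that is abundant in macrophages, at 31.4 ± 5.96 and 35.4 ± 8.18 CPM.

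The 20 carriers of vitamins, nucleosides and other small solutes also held no gene that passed, with 12 log2 fold changes above 0 and 8 below. With the block, which called 12.5% of all tested genes, 6 were called, all higher, Slc6a12, Slc6a8, Slc29a3, Slc43a3, Slc44a1 and Slc44a2. Slc6a6, the taurine carrier, was the most abundant per length at 72.2 ± 20.6 in WT and 72.1 ± 19.8 in Batf2-/-, then Slc23a2, the ascorbate carrier SVCT2, at 27.6 ± 8.15 and 27 ± 6.76, and Slc29a3, a lysosomal nucleoside carrier, at 14.7 ± 4.71 and 18.8 ± 4.61 (RPKM, SD, n = 4). The genotype means of Slc6a6 were nearly equal while its libraries ranged about 2-fold, at 794, 697, 557 and 395 CPM in WT and 835, 636, 513 and 456 CPM in Batf2-/-. Slc23a2 did likewise, at 297, 232, 209 and 141 CPM in WT and 283, 224, 196 and 155 CPM in Batf2-/-.

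The spread within genotypes followed libraries 4 and 8 for many carriers, and it is described here with their standing apart already known. In 92 of the 173 genes (53.2%) library 4 was the lowest of WT and library 8 the lowest of Batf2-/-, and in 29 (16.8%) both were the highest, against 32.3% and 31.2% of all tested genes. Among amino acid and peptide carriers 17 of 24 were lowest in both libraries and none highest, and among carriers of vitamins, nucleosides and small solutes 13 of 20 and none. Among mitochondrial carriers 10 of 33 were lowest and 15 highest.

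**Figure D4:**
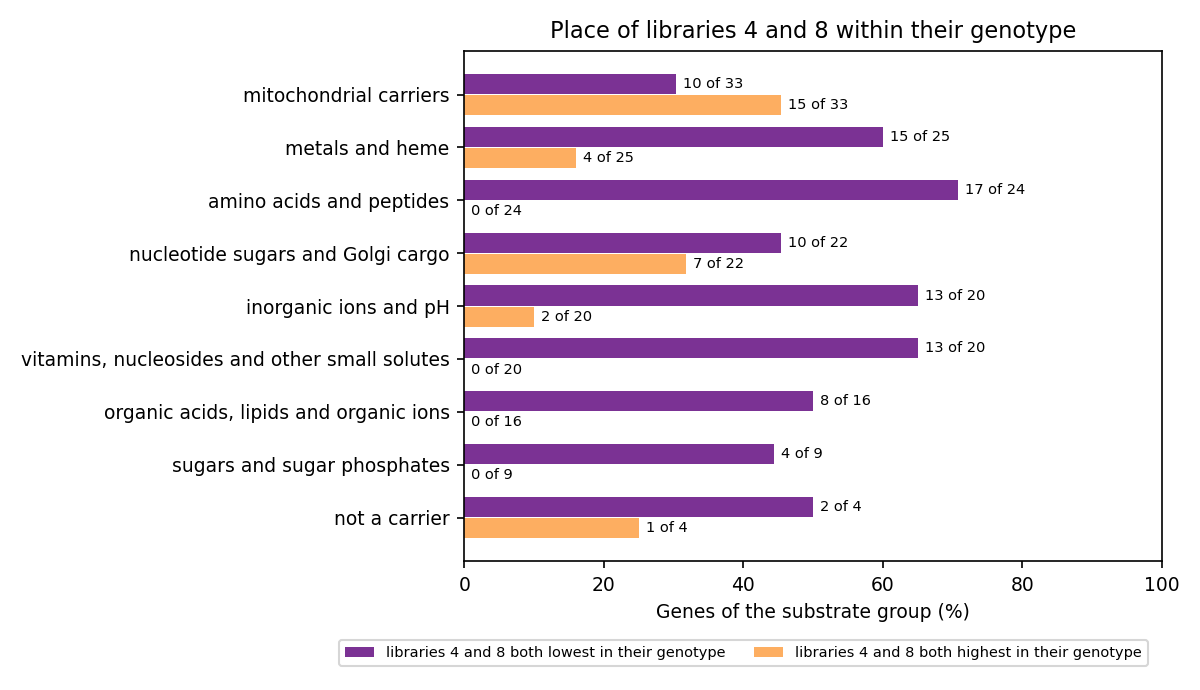
Bars give the percentage of genes of each substrate group in which libraries 4 and 8 were both the lowest (purple) or both the highest (orange) of their genotype, with the counts beside them. Orange bars exceed purple bars for mitochondrial carriers, 15 of 33 against 10 of 33, and are at 0 for amino acids, organic acids, sugars and vitamins.

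Summed CPM of the 20 carriers of vitamins, nucleosides and small solutes was 130%, 110%, 92.5% and 66.6% of the WT mean in libraries 1 to 4 and 132%, 106%, 88.7% and 72.8% of the Batf2-/- mean in libraries 5 to 8. Amino acid and peptide carriers summed to 84.4% of the WT mean in library 4 and 75.4% of the Batf2-/- mean in library 8. For mitochondrial carriers the sum stayed between 95.1% and 106% of the genotype mean in every library.

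The genes with the largest spread within genotypes, at a mean log2 CPM of at least 2, were Slc25a14, Slc6a8, Slc6a12, Slc44a2, Slc52a3 and Slc25a33. Slc6a8, the creatine carrier, ran 29.2, 24.2, 18.6 and 14.1 CPM in WT and 42.7, 30.1, 25.8 and 16.7 CPM in Batf2-/-. Slc44a2, a choline carrier, ran 43.2, 37.8, 29.7 and 19.4 CPM in WT and 51.5, 42.4, 33.1 and 26.8 CPM in Batf2-/-. Slc52a3, a riboflavin carrier, ran 14.2, 10.8, 10.3 and 6.81 CPM and 14.5, 10.7, 10.1 and 6.26 CPM, so all 3 were lowest in libraries 4 and 8 with overlapping genotypes. Slc25a33, a mitochondrial pyrimidine nucleotide carrier, went the other way, at 19.7, 18.2, 25.2 and 35.3 CPM in WT and 13.5, 16.1, 23.7 and 26.8 CPM in Batf2-/-. Slc25a14, an uncoupling protein relative, was likewise highest in libraries 4 and 8, at 10.2 and 8.06 CPM against 3.69 to 6.63 CPM in the others.

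**Figure D5:**
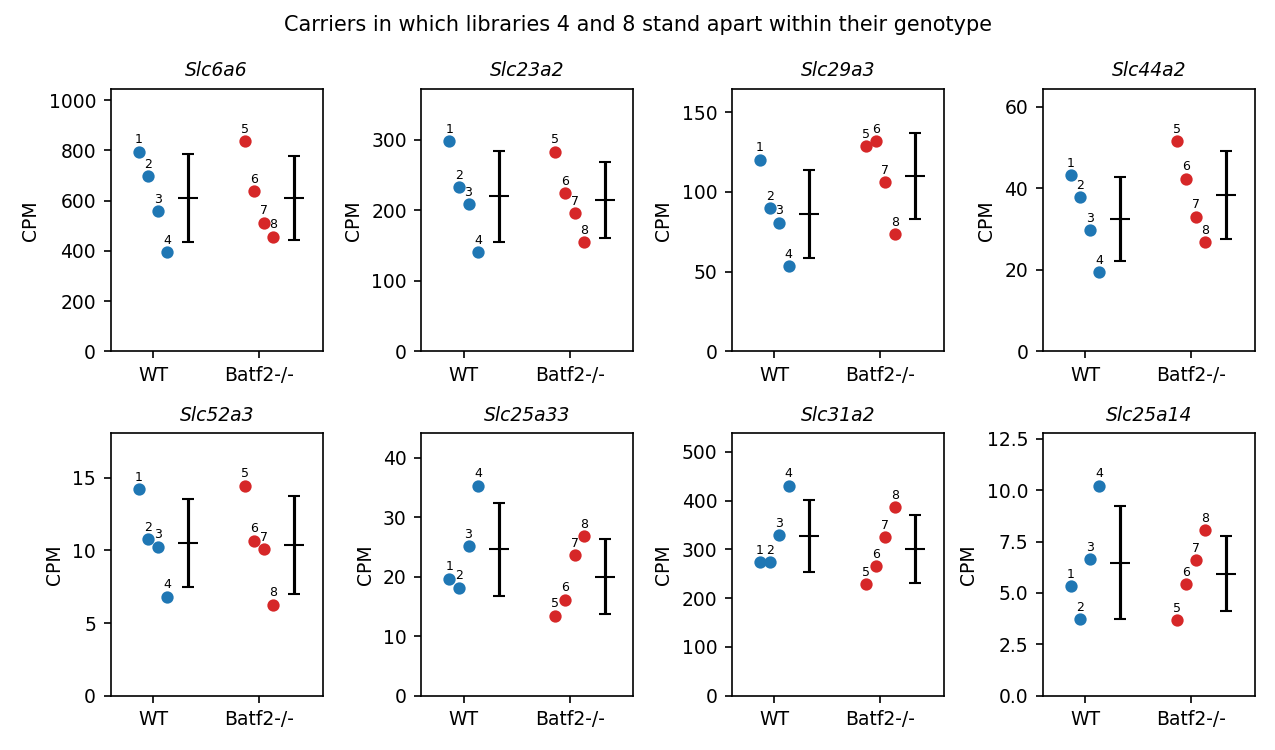
Each dot is the CPM of 1 library, labelled with its number, for WT (blue) and Batf2-/- (red); the black mark and bar are the mean and SD over 4 libraries, and each axis starts at 0. Libraries 4 and 8 are the lowest of their genotype for Slc6a6, Slc23a2, Slc29a3, Slc44a2 and Slc52a3 and the highest for Slc25a33, Slc31a2 and Slc25a14.

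Genes around the carriers were examined as lists, chosen with earlier results of these data known. Over all tested genes 1.11% were called and 8.5% had an unadjusted p under 0.05 by edgeR. Lists this small were not compared with these shares by a test, and nothing is read from their counts. Of 43 tested carriers of SLC families named otherwise, such as the mitochondrial pyruvate carrier subunits Mpc1 and Mpc2 and the uncoupling protein Ucp2, none rose or fell by edgeR's adjusted p and 3 had an unadjusted p under 0.05, all lower in Batf2-/-. Their median log2 fold change was -0.06. Of 35 tested partners of carriers and amino acid sensing genes none passed and 1 had an unadjusted p under 0.05, Fnip1, a folliculin partner of the mTORC1 pathway, at 133 ± 6.45 CPM in WT against 107 ± 5.87 in Batf2-/- (SD with n = 4; edgeR adjusted p = 0.253). Of 29 tested amino acid enzymes none passed and 4 had an unadjusted p under 0.05, 1 higher and 3 lower. Bckdhb, of the branched-chain ketoacid dehydrogenase, stood at 30.9 ± 5.05 and 22.8 ± 3.17 CPM (edgeR adjusted p = 0.324). Other subunits of that complex, Bckdha and Dbt, stood at 11.5 ± 0.311 and 12 ± 0.611 and at 12.2 ± 1.21 and 14 ± 1.35 CPM. Of 11 tested zinc and metal buffering genes none passed and 1, the metallothionein gene Mt2, had an unadjusted p under 0.05, at 109 ± 9.51 and 158 ± 46.4 CPM (adjusted p = 0.391).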

How the data were processed

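Messenger RNA of 8 pools of stimulated alveolar macrophages was sequenced, from libraries of a stranded kit, as the labels' protocols state. The authors deposited 1 table of raw counts, not normalized. Its build is GRCm38 (mm10) per the submitters' processing notes. Which aligner, counter, strand setting and annotation were used is not given in the sources used here. Hence genes that overlap on opposite strands and near-identical copies are uncertain. Columns were assigned to genotypes by the heading above them and carry no replicate number of the labels.

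The members and lists were chosen with earlier results of these data known. Counts were tested by quasi-likelihood in edgeR 4.0.16 under R 4.3.3 (robust dispersions, TMM factors, default expression filter, genotype as the only term), two-sided, with Benjamini-Hochberg adjustment over 11083 genes and a threshold of 0.05. CPM values are counts divided by the TMM-scaled filtered library size, times 1e6; the SE of a log2 fold change was derived from the F statistic. Spread within genotypes is the SD of log2(CPM + 0.5). Exon lengths and coordinates came from GENCODE, to which 48349 of 48709 identifiers matched. No libraries of 1 genotype agreed within sampling noise, as duplicate deposits of a library would (a chi-square per degree of freedom of at least 30.5). The spread is that between libraries, each of its own pool of mice, and its source was not tested. Library totals were 31730041 counts or more. Named genes were those called, the 3 most abundant per length and up to 2 non-overlapping ones of each substrate group, the 6 with the largest spread, those within 20 Mb of Batf2, Slc43 genes and those next to the count limit; others were chosen after their values were seen. The procedure was tested on simulated data. Alternatives were DESeq2 1.42.0, limma-voom (limma 3.58.1), other scalings and filters, a block on column position and leaving out libraries.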

Additional observations from a re-analysis of the deposited data

Results flagged for a closer look

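In sets of 4 libraries, a library whose gap to the nearest other exceeded Dixon's limit was looked for in the named genes and the substrate group sums. Of 104 sets 5 exceeded it, and chance alone gives about 1 in 20. Slc16a1 in WT was 50.4 CPM in library 3 against 56.3 to 57.5 CPM in the other 3. Slc25a11 in Batf2-/- was 96.2 CPM in library 8 against 87.6 to 89.0 CPM. Slc25a45 in WT was 18.1 CPM in library 1 against 13.6 to 14 CPM, and Slc39a6 in WT was 111 CPM in library 1 against 96.2 to 97.3 CPM. The summed amino acid and peptide carriers in Batf2-/- were 2604 CPM in library 8 against 3652 to 3800 CPM. The cause of these values was not tested.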

How the results depend on the processing

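The number of Slc genes called was 2 by edgeR. It was 2 with RLE or upper quartile factors, with a filter of at least 1 CPM in at least 4 libraries (164 genes tested) and with a limit of 800 counts for membership (150 genes). It was 6 with DESeq2 (2.68% of all genes tested there), 5 with limma-voom and sample quality weights (3.34%), 4 with no filter (0.781%) and 5 without libraries 4 and 8 (1.85%). Leaving out single libraries gave 2 to 5 calls, 5 without library 8 and 2 without any other. Slc33a1 was called in each of 16 alternative fits, with log2 fold changes of -0.93 to -0.81, and the description of Slc43a2 ranged from 1.59 to 1.81. Outside the block fit the further calls were Slc1a2, Slc6a12, Slc9a3r1 and, with DESeq2, Slc6a4. The genotype differences followed across the fits were those of genes called or picked for non-overlapping groups, and none changed sign. Genes picked in this way can hardly change sign, so nothing is read from that. The count of non-overlapping genes was 12 with TMM or RLE factors. Of 352 recomputed mean levels, 0 moved by more than the SD within genotypes. Leaving out single libraries, or 4 and 8 together, can hardly move a mean that far, so little is read from this. No paired analysis was possible because the columns carry no replicate number of the labels. Column position, a pairing the labels do not give, was used as a block instead and gave 32 calls, 17 higher and 15 lower, where 12.5% of all tested genes were called. The causes were not tested.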

Other observations

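Slc32a1, the vesicular carrier of GABA and glycine, fell short of the count limit with 153 counts in all but passed the expression filter. It did so only through the WT libraries, where it was higher. Its difference is thus a description, and nothing is read from its adjusted p. Its counts were 55, 30, 33 and 14 in WT libraries 1 to 4 and 10, 4, 6 and 1 in Batf2-/- libraries 5 to 8. No Batf2-/- library reached a WT library. It fell 6.23-fold by edgeR, from 0.890 ± 0.404 to 0.136 ± 0.0901 CPM (SD, n = 4; log2 fold change -2.64 ± 0.50, SE; adjusted p = 0.0391), and was chosen after its values were seen. It was the only one of the 7 tested Slc genes below the count limit that passed. Over all tested genes 1.11% were called, and with 7 genes nothing is read from that count.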
